A study of Mus musculus with 14 samples.

Results

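Oncostatin M, interleukin-6 and their relatives signal through receptors that share the subunit gp130, and 8 genes of that route were followed in mouse left ventricle. Osmr, Lifr and Il6ra encode receptor subunits that act with gp130, and Il6st encodes gp130 itself. The others are the kinase genes Jak1 and Jak2, the transcription factor gene Stat3, and Socs3, the feedback inhibitor. The 8 genes were taken by symbol from a table of 24054 genes, and all 8 passed the filter on low counts that 13588 genes passed. Socs3 and Osmr were selected on their values in these same libraries, being high in HFpEF-scr and lower in HFpEF-FoxO1-sh, so their levels are given as a description with no test. The other 6 members were tested in a fit over all genes.

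The 14 libraries came from left ventricles of mice labelled C56Bl6. The control group (5 libraries) had a control diet for 10 weeks and no virus is named for it. HFpEF-scr (4 libraries) and HFpEF-FoxO1-sh (5 libraries) share a high-fat diet with L-NAME, which blocks nitric oxide synthases, for 6 weeks, and this pairing is used as a model of heart failure with preserved ejection fraction (HFpEF). Both also share an adeno-associated virus (AAV) for 4 weeks, with a scrambled hairpin in the first and a hairpin against FoxO1 in the second, so diet and virus cannot be told apart in any comparison with the controls. The virus's serotype and promoter and the animals' age and sex are not given in the sources used here. Whether the replicates of a group are different mice is not stated, and a p here covers no more than library-to-library spread, which may be technical.

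When a cytokine of this family binds, gp130 and a partner receptor bring together Janus kinases, which phosphorylate STAT3. Phosphorylated STAT3 enters the nucleus and switches on genes that include Socs3, whose protein binds gp130 and the kinases and shuts the signal down. In the heart, oncostatin M and its receptor are known for their part in the remodelling of heart muscle cells, and interleukin-6 for inflammation. Messenger RNA shows neither the phosphorylation of STAT3 nor the amount of any receptor on the cell surface.

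The stretch before the transcription start of Socs3 is shown because the 9-base STAT motif occurred there and in no other member's stretch. The 250 bases before each RefSeq start were read from RefSeq on GRCm38.p6, which matched all 8 members with 9 starts, and searched on both strands. Stat3 is printed beside it as another member that was lower in HFpEF-FoxO1-sh than in HFpEF-scr and whose stretch lies outside annotated UTRs. The Socs3 stretch is chr11:117969367-117969616 and the Stat3 stretch chr11:100939541-100939790, both on the minus strand and written 5′ to 3′, with capitals marking the motif.
Socs3: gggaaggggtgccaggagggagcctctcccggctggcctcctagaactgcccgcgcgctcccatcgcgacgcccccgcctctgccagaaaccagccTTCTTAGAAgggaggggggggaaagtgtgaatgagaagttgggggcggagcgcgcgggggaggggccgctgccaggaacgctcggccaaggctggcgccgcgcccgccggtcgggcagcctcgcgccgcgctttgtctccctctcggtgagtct
Stat3: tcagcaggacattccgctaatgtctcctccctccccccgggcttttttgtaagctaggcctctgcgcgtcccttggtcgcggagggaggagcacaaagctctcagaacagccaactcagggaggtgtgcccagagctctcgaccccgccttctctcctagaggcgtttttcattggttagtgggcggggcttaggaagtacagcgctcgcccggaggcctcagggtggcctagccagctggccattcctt
The motif TTCNNNGAA read TTCTTAGAA in Socs3 and lay 154 to 146 bases before the start. It occurred in 7.01% of the 32817 mouse promoters searched over the same length. The AP-1 motif TGANTCA (6.75% of promoters), the FoxO motif TGTTTAC (3.16%) and the C/EBP motif TTGCNNAA (9.57%) were found before none of the 9 starts of the members. A match is a run of letters and was not measured as a bound site. GENCODE vM21 places Socs3 at chr11:117966079-117970047, so the printed stretch lies inside the annotated gene. It lies outside annotated UTRs.

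Library totals ran from 13.17 M to 21.25 M counts (M, 1000000 counts), and 16110 to 16531 genes had a count. Foxo1, the target of the hairpin, was at 44.0 ± 1.93 CPM (counts per 1000000 after TMM scaling; mean ± SD, n = 5) in control, 43.5 ± 3.74 (n = 4) in HFpEF-scr and 42.4 ± 2.56 (n = 5) in HFpEF-FoxO1-sh. It was not called between the hairpin groups (log2 fold change -0.04 ± 0.06 (SE), 95% interval -0.167 to 0.09, edgeR quasi-likelihood adjusted p = 0.78), so these counts do not show a lower Foxo1 transcript in the libraries labelled HFpEF-FoxO1-sh, and the groups are named as labelled. The libraries HFpEF-scr 1 and 2 were highest in Socs3 and in a score of 20 immediate early genes (mean log2 CPM), which respond to stimulation within minutes. They were not clear of all others. HFpEF-scr 1 scored 6.45 beside 6.15 in control 5, and HFpEF-scr 4, at 16.2 CPM of Socs3, was also above the other groups. HFpEF-scr 1 also held the highest sums of red cell and endothelial markers. The fold changes that moved most without HFpEF-scr 1 and 2 are given with and without them. Markers of ventricular muscle were abundant, with summed levels of 78250 to 96800 CPM, whereas 5 atrial muscle markers summed to 95.9 to 188 CPM in control, 46.2 to 150 in HFpEF-scr and 43.0 to 70.8 in HFpEF-FoxO1-sh. Of these, Myl4 and Nppa passed the filter and made up nearly all of the sum. Myl7 (81 counts in all 14 libraries), Sln (4) and Bmp10 (3) were close to 0. Whether the sum followed the amount of atrial tissue was not tested. In whole tissue, fewer cells of a type and less RNA per cell cannot be told apart.

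Osmr and Socs3 were both higher in HFpEF-scr than in control, but in different ways. Osmr was higher in each of the 4 HFpEF-scr libraries by a similar amount, 1.49-fold on average, and in HFpEF-FoxO1-sh it lay between the other groups. Socs3 was high in 3 of the 4 HFpEF-scr libraries, up to 66.4 CPM, and at control level in the other one. Among the other 6 members, Stat3 fell by 21.5% in HFpEF-FoxO1-sh against HFpEF-scr and Jak2 rose by 12.8% in HFpEF-FoxO1-sh against control. Il6st, Lifr, Il6ra and Jak1 were not called in any comparison.

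Osmr (chr15:6813577-6874969, minus strand) encodes the subunit that pairs with gp130 to bind oncostatin M. It read 23.0, 19.96, 21.7, 20.3 and 21.6 CPM in control 1 to 5. It read 32.5, 29.2, 31.4 and 34.2 CPM in HFpEF-scr 1 to 4. It read 24.6, 23.3, 28.4, 23.4 and 26.0 CPM in HFpEF-FoxO1-sh 1 to 5. No library of one group reached the range of another, and HFpEF-FoxO1-sh filled the gap between the other groups. The log2 fold change was 0.58 ± 0.07 (SE) for HFpEF-scr against control. It was -0.34 ± 0.07 for HFpEF-FoxO1-sh against HFpEF-scr, and HFpEF-FoxO1-sh remained 0.24 ± 0.07 above control. Osmr differed by about as much without HFpEF-scr 1 and 2. Its log2 fold changes were then 0.62 against control and -0.38 for HFpEF-FoxO1-sh against HFpEF-scr.

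Il6st (chr13:112464070-112510086, plus strand), the shared signal-passing subunit, was at 253 ± 8.82 CPM in control, 268 ± 8.21 in HFpEF-scr and 258 ± 9.82 in HFpEF-FoxO1-sh. Its groups overlapped in all 3 comparisons. The log2 fold change was 0.08 in HFpEF-scr against control, with a 95% interval of -0.005 to 0.165 (adjusted p = 0.241), so a rise beyond 0.165 lay outside the interval. Lifr (chr15:7090614-7197489, plus strand), which encodes the receptor subunit for leukaemia inhibitory factor, was at 80.7 ± 2.50, 80.2 ± 10.2 and 86.3 ± 11.3 CPM in control, HFpEF-scr and HFpEF-FoxO1-sh. The wider spread in the HFpEF groups came with single high libraries, 94.3 CPM in HFpEF-scr 4 and 105 in HFpEF-FoxO1-sh 5. Its log2 fold changes were -0.01 (95% interval -0.196 to 0.176), 0.11 (-0.078 to 0.294) and 0.10 (-0.077 to 0.273) in HFpEF-scr against control, HFpEF-FoxO1-sh against HFpEF-scr and HFpEF-FoxO1-sh against control.

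Il6ra (chr3:89864059-89913196, minus strand) encodes the subunit that binds interleukin-6 before gp130 joins. It was the scarcest member. It read 4.55, 3.56, 4.18, 5.19 and 4.64 CPM in control, then 3.87, 3.39, 3.46 and 5.03 in HFpEF-scr, and 3.25, 3.14, 2.41, 3.10 and 4.13 in HFpEF-FoxO1-sh. In HFpEF-FoxO1-sh 4 of the 5 libraries lay below every control library, and 1 overlapped them. The log2 fold change against control was -0.46 ± 0.16 (SE; edgeR adjusted p = 0.0593), which missed the threshold of 0.05. Over 17 alternative settings this adjusted p ran from 0.0311 to 0.143, with a call in 3 of them. Of its exon bases, 2.8% are shared with Gm42809, and Il6ra counts there are uncertain. Macrophage markers moved the same way, and their values are given with the targets.

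Stat3 (chr11:100885098-100939540, minus strand) encodes the factor that carries the signal to the nucleus. It read 134, 148, 121, 138 and 126 CPM in control. It read 182, 126, 155 and 141 CPM in HFpEF-scr, and 111, 120, 120, 123 and 121 in HFpEF-FoxO1-sh. The HFpEF-FoxO1-sh libraries were close together and all below the lowest HFpEF-scr library, while control and HFpEF-scr overlapped. Stat3 fell by 21.5% in HFpEF-FoxO1-sh against HFpEF-scr (log2 fold change -0.35 ± 0.08, edgeR adjusted p = 0.0321). Against control the log2 fold changes were 0.18 for HFpEF-scr (adjusted p = 0.195) and -0.17 for HFpEF-FoxO1-sh (adjusted p = 0.185). The call was lost in 10 of 17 alternative settings, with adjusted p between 0.00349 and 0.0907, and the log2 fold change stayed between -0.43 and -0.25. Leaving out any one of HFpEF-scr 1 or 3 or HFpEF-FoxO1-sh 1, 2, 3 or 4 lost it.

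Jak1 (chr4:101152367-101265282, minus strand) and Jak2 (chr19:29251828-29313080, plus strand) encode kinases bound to the receptor tails. Jak1 was at 199 ± 12.1, 188 ± 12.5 and 187 ± 12.0 CPM in control, HFpEF-scr and HFpEF-FoxO1-sh, and its groups overlapped in every comparison. Its log2 fold changes were -0.08 (95% interval -0.207 to 0.042), -0.01 (-0.136 to 0.113) and -0.09 (-0.211 to 0.023) in the 3 comparisons. Jak2 read 42.6, 42.2, 43.2, 44.9 and 46.7 CPM in control, then 48.9, 45.2, 47.0 and 49.3 in HFpEF-scr, and 52.8, 45.6, 46.7, 50.4 and 52.0 in HFpEF-FoxO1-sh. Both HFpEF groups sat slightly higher than control with some overlap. Jak2 rose by 12.8% in HFpEF-FoxO1-sh against control (log2 fold change 0.17 ± 0.05, adjusted p = 0.0299). The value for HFpEF-scr and control was 0.12 ± 0.05 (adjusted p = 0.192), and the hairpin groups differed by 0.06 (adjusted p = 0.585). The call against control was lost in 6 of 17 alternative settings (adjusted p 0.0183 to 0.0814), each of them the loss of 1 library, namely control 1, 2 or 3 or HFpEF-FoxO1-sh 1, 4 or 5.

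Counted over the 6 members with a test, edgeR called 0 in HFpEF-scr against control, where 3.66% of all genes were called higher and 3.7% lower. There were 2 at an unadjusted p under 0.05, and DESeq2 and limma voom called 0 as well. In HFpEF-FoxO1-sh against HFpEF-scr, 1 member (Stat3) was called lower and 0 higher, beside 2.26% and 1.32% of all genes. In HFpEF-FoxO1-sh against control, 1 member (Jak2) was called higher and 0 lower, beside 6.68% and 6.28% of all genes. The comparisons share groups, so they are not independent of each other.

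**Figure D1:**
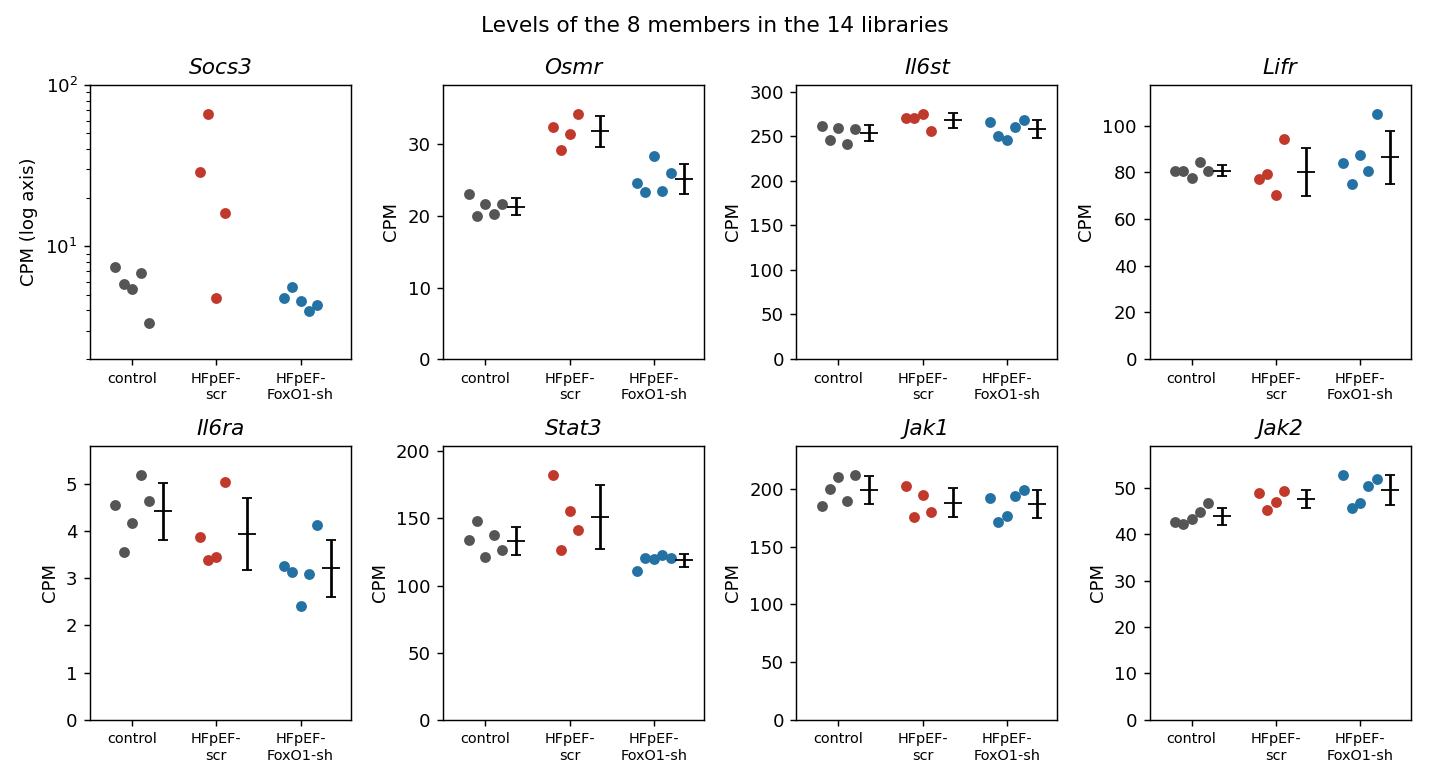
CPM of each of the 8 members in each library, by group, with 1 point per library; Socs3 is on a log axis, the other axes start at 0, and bars to the right of the points (not drawn for Socs3) are the mean ± SD of the group. The 3 groups of Osmr do not overlap, Socs3 is high in 3 of 4 HFpEF-scr libraries, and all 5 HFpEF-FoxO1-sh points of Stat3 lie below the HFpEF-scr points.

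Socs3 (chr11:117966079-117970047, minus strand) was the member with the largest differences in both comparisons with HFpEF-scr. It read 7.45, 5.86, 5.42, 6.80 and 3.34 CPM in control 1 to 5. It read 28.9, 66.4, 4.80 and 16.2 CPM in HFpEF-scr 1 to 4, and 4.78, 5.60, 4.55, 3.94 and 4.33 in HFpEF-FoxO1-sh 1 to 5. HFpEF-scr 3 lay inside the control range, so the groups overlapped, while HFpEF-scr 1, 2 and 4 were above every library of the other groups. The log2 fold change was 2.31 ± 0.48 (SE) for HFpEF-scr against control and -2.64 ± 0.49 for HFpEF-FoxO1-sh against HFpEF-scr. HFpEF-FoxO1-sh and control differed by -0.33 ± 0.53.

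How large the Socs3 difference was depended on a pair of libraries. Without HFpEF-scr 1 and 2, its log2 fold changes were 0.83 against control and -1.16 for HFpEF-FoxO1-sh against HFpEF-scr. Without HFpEF-scr 2 alone they were 1.502 and -1.83, and without HFpEF-scr 3 they were 2.67 and -3.00. The SD of log2 CPM within HFpEF-scr was 1.58 for Socs3, above that of 99.8% of 11930 genes, whose median SD was 0.12. Within control the SD of Socs3 was 0.44, above that of 97.8% of the genes. Within HFpEF-FoxO1-sh it was 0.18, above that of 78.9%. The SD of Osmr within HFpEF-scr was 0.10, above that of 36.3% of the genes.

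**Figure D2:**
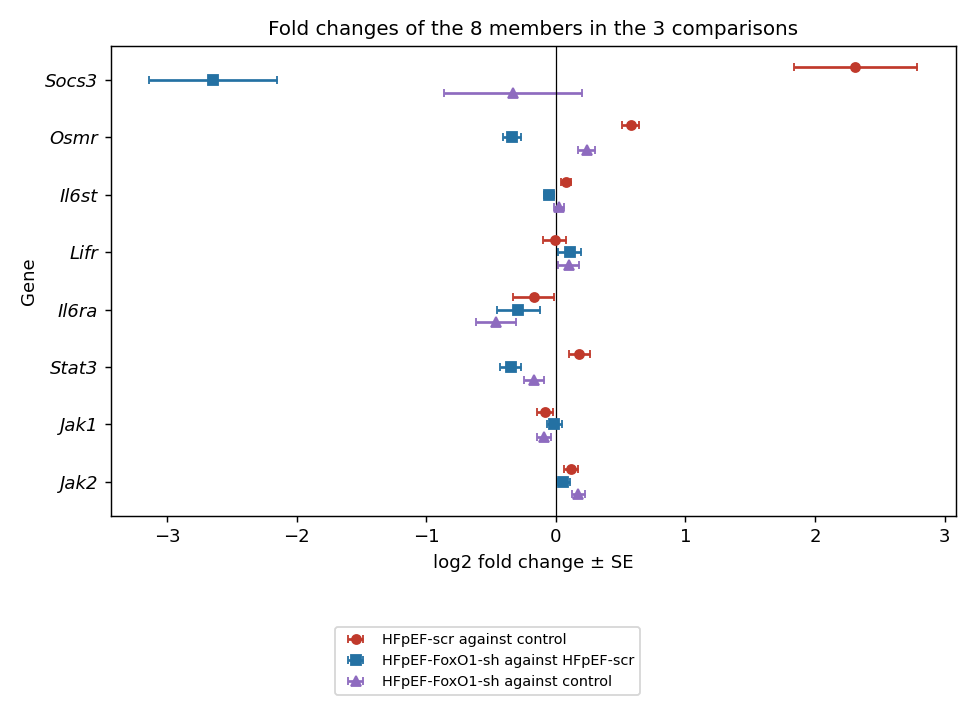
log2 fold change (x axis) of each of the 8 members (y axis) in the 3 comparisons, with bars of ± 1 SE from the edgeR fit over all 14 libraries. Socs3 lies near 2.31 and -2.64 with wide bars, Osmr at 0.58, -0.34 and 0.24 with narrow ones, and the other 6 members lie within 0.5 of 0.

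Levels per kilobase of exon give a rough comparison between genes. The length covers all annotated exons of a gene, not only those of its expressed transcripts, so the order depends on the annotation. Jak1 was the most abundant member in control on this scale (27.6 ± 1.67 CPM per kilobase). After it came Il6st (22.8 ± 0.79), Stat3 (14.0 ± 1.10), Jak2 (8.73 ± 0.37), Lifr (7.49 ± 0.23), Socs3 (2.00 ± 0.55), Osmr (1.76 ± 0.10) and Il6ra (0.51 ± 0.07). The neighbours Socs3 and Osmr differed by less than the spread of Socs3, and the other neighbours by more than either SD. The order put gp130 and its kinase and STAT genes above the partner subunits Osmr and Il6ra. In HFpEF-scr the mean level of Socs3 ranked 4 of 8, at 10.1 ± 9.26 CPM per kilobase, a spread wide enough to reach the levels of Jak2 and Lifr. In HFpEF-FoxO1-sh it ranked 7 at 1.61 ± 0.21, below Osmr at 2.08 ± 0.18.

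Osm and Il6 transcripts were scarce in whole ventricle. Osm, the gene of oncostatin M, had 4, 3, 3, 0 and 6 counts in control, 3, 6, 0 and 16 in HFpEF-scr, and 0, 1, 2, 1 and 0 in HFpEF-FoxO1-sh. It did not pass the filter, and with no filter its log2 fold change was -2.79 for HFpEF-FoxO1-sh against HFpEF-scr (edgeR adjusted p = 0.133 over 18856 genes) and 1.08 for HFpEF-scr against control (adjusted p = 0.494). A fitted fold of so few counts depends on the prior count. Libraries with 0 counts of Osm were HFpEF-scr 3, control 4 and HFpEF-FoxO1-sh 1 and 5, with Osmr at 31.4, 20.3, 24.6 and 26.0 CPM. Counts this low cannot show whether the ligand was present, and its relation to Osmr was not tested.

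Il6, the gene of interleukin-6, is named here after its values were seen, because its counts fell in the same libraries as the high Socs3. It had 1, 0, 0, 0 and 0 counts in control, 11, 18, 0 and 10 in HFpEF-scr, and 1, 1, 1, 0 and 4 in HFpEF-FoxO1-sh. HFpEF-scr 1, 2 and 4 were the libraries with 10 or more counts, and HFpEF-scr 3 had 0. It did not pass the filter. No fold is given for it, because control held 1 count in all, and no test, because it was picked for this pattern.

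Of 10 ligand genes, 4 passed the filter. Ctf1, which encodes cardiotrophin-1, a ligand of gp130 and the Lifr subunit made in heart muscle, read 6.14, 5.42, 7.96, 7.61 and 5.59 CPM in control, then 4.86, 7.34, 5.76 and 5.17 in HFpEF-scr, and 8.83, 9.04, 9.04, 8.66 and 7.80 in HFpEF-FoxO1-sh. Every HFpEF-FoxO1-sh library lay above every HFpEF-scr library. Ctf1 rose in HFpEF-FoxO1-sh against HFpEF-scr (log2 fold change 0.58 ± 0.14, edgeR adjusted p = 0.0309) and against control (0.40 ± 0.13, adjusted p = 0.0442), and was at -0.18 in HFpEF-scr against control (adjusted p = 0.477). The 2 calls were lost in 9 and 11 of 17 alternative settings, in which the direction held. None of the other 3 tested ligand genes and none of the 3 tested genes of further receptor subunits was called in any comparison by edgeR with the filter on low counts.

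**Figure D3:**
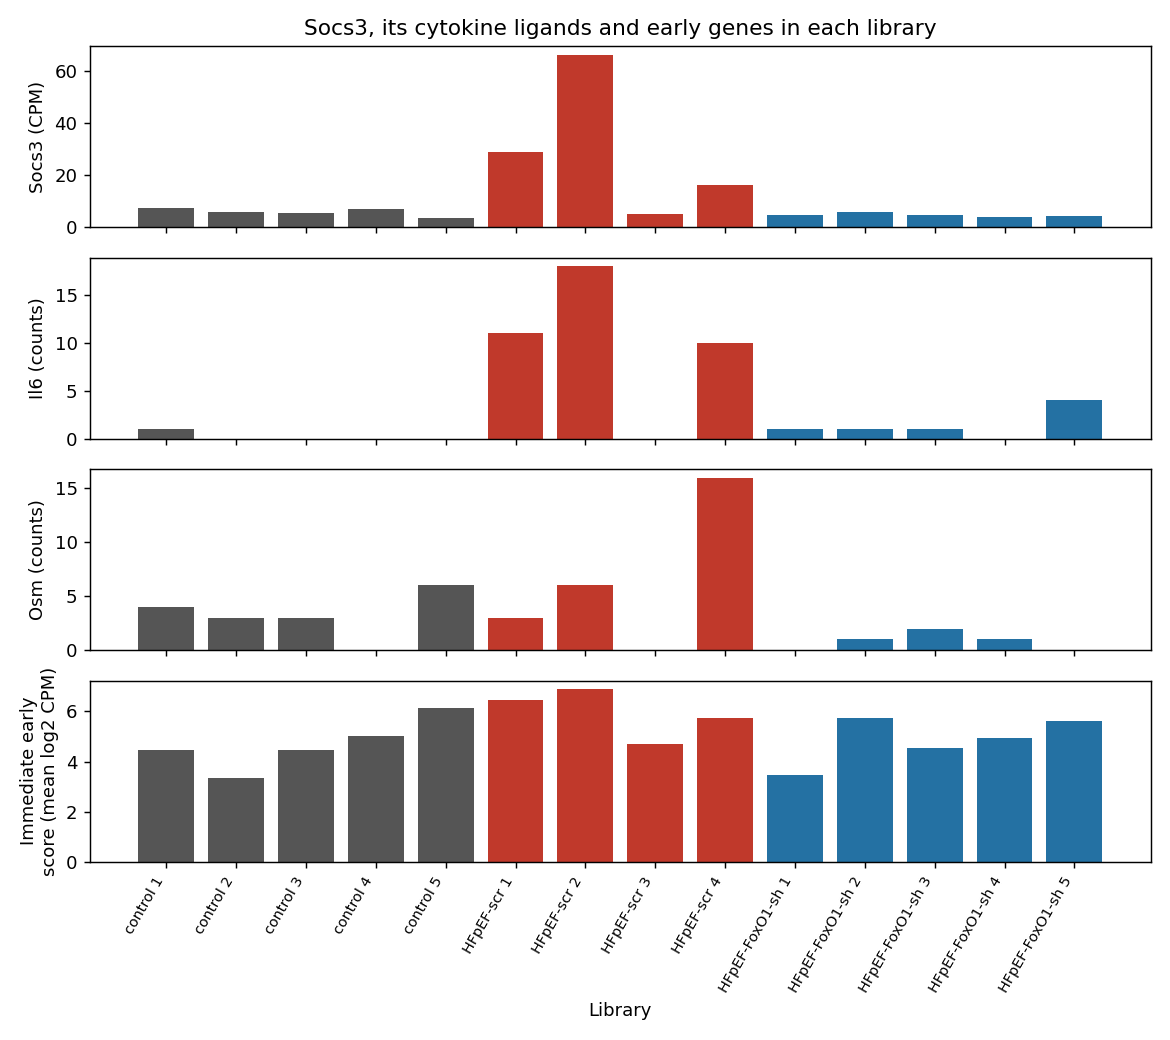
From top to bottom, Socs3 in CPM, Il6 and Osm in counts, and the immediate early score (mean log2 CPM of 20 genes), each drawn as 1 bar per library, with control in grey, HFpEF-scr in red and HFpEF-FoxO1-sh in blue. HFpEF-scr 1, 2 and 4 are high in Socs3 and Il6, HFpEF-scr 3 has 0 counts of Il6 and Osm, and the score is highest in HFpEF-scr 1 and 2.

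The 5 lists of pathway genes beside the members hold 53 genes, of which 43 were tested. In HFpEF-scr against control, 4 were called higher (Ptpn6, Cebpb, Cebpd and Myc) and 0 lower, beside 3.66% and 3.7% of all genes, with a median log2 fold change of 0.11, beside 0.00163 over all genes. In HFpEF-FoxO1-sh against HFpEF-scr, 1 was called higher (Ctf1) and 4 lower (Myc, Ccl2, Icam1 and Il4ra), beside 1.32% and 2.26% of all genes, with a median of -0.20, beside 0.00442 over all genes. In HFpEF-FoxO1-sh against control, 1 was called higher (Ctf1) and 6 lower (Socs1, Socs2, Cish, Runx1, Il4ra and Fgl2), beside 6.68% and 6.28% of all genes, with a median of -0.05, beside -0.00303 over all genes. Without HFpEF-scr 1 and 2, edgeR called 0 of the 43 in HFpEF-scr against control (9 at an unadjusted p under 0.05) and 0 in HFpEF-FoxO1-sh against HFpEF-scr (7 at an unadjusted p under 0.05). DESeq2 and limma voom were not run on those libraries. With all libraries DESeq2 called 7 and limma voom 2 of the pathway genes in HFpEF-scr against control.

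Of 12 inhibitor genes other than Socs3, 1 was called higher in HFpEF-scr against control, beside 3.66% of all genes. It was Ptpn6, which encodes the phosphatase SHP-1 of blood cells (log2 fold change 0.54 ± 0.16, adjusted p = 0.0472), and that call was lost in 12 of 17 alternative settings. In HFpEF-FoxO1-sh against control, 3 of the 12, all relatives of Socs3, were called lower and 0 higher, beside 6.28% and 6.68% of all genes. Socs1 was low throughout, at 0.87 CPM in control and 0.32 in HFpEF-FoxO1-sh (log2 fold change -1.43 ± 0.37, adjusted p = 0.0195). It had 9 to 21 counts per library in control, 5 to 14 in HFpEF-scr and 2 to 8 in HFpEF-FoxO1-sh. Socs1 passed the filter through control and HFpEF-scr libraries, so its call is no firm result. The lowest control library was at 0.61 CPM and the highest HFpEF-FoxO1-sh library at 0.60, so these groups only just missed an overlap.

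Socs2 and Cish are feedback genes best known downstream of STAT5 and growth hormone. Socs2 was at 52.0 CPM in control and 37.1 in HFpEF-FoxO1-sh (log2 fold change -0.48 ± 0.14, adjusted p = 0.0349). Cish was at 94.1 and 60.9 CPM (-0.63 ± 0.19, adjusted p = 0.0389). In HFpEF-scr against control their values were -0.31 (adjusted p = 0.22) for Socs2 and -0.17 (adjusted p = 0.663) for Cish. The Socs2 and Cish calls were each lost in 9 of 17 alternative settings. None of the 5 further kinase and STAT genes was called in any comparison by edgeR, and their medians were -0.15, 0.02 and -0.03.

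Among 22 genes known to be induced by STAT3 or these cytokines, 19 were tested. In HFpEF-scr against control, 15 of the 19 were above 0 and 3 were called higher, beside 3.66% of all genes, with a median log2 fold change of 0.33. In HFpEF-FoxO1-sh against HFpEF-scr, 1 was above 0 and 4 were called lower, beside 2.26% of all genes, with a median of -0.36. Between HFpEF-FoxO1-sh and control, 7 were above 0 and 3 were called lower in HFpEF-FoxO1-sh, beside 6.28% of all genes, with a median of -0.17. Many of them also respond to other signals, and Myc and Cebpd are early response genes as well.

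Cebpd and Cebpb encode transcription factors of the acute phase response. Cebpd read 13.6, 14.8, 15.3, 19.7 and 27.5 CPM in control, then 41.2, 55.4, 15.8 and 36.4 in HFpEF-scr, and 19.7, 18.5, 25.5, 20.8 and 27.4 in HFpEF-FoxO1-sh. HFpEF-scr 1, 2 and 4 were again above all other libraries and HFpEF-scr 3 within the control range. Cebpd rose in HFpEF-scr against control (log2 fold change 1.04 ± 0.27, adjusted p = 0.0298), and without HFpEF-scr 1 and 2 the value was 0.52 (adjusted p = 0.331; over all settings 0.00179 to 0.331). Cebpb rose by 0.60 ± 0.17 (adjusted p = 0.047), a call lost in 12 of 17 alternative settings.

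Myc, a growth regulator, read 2.72, 2.75, 4.37, 2.76 and 4.30 CPM in control, then 8.37, 10.0, 4.35 and 5.46 in HFpEF-scr, and 2.79, 3.21, 2.62, 4.01 and 4.53 in HFpEF-FoxO1-sh. HFpEF-scr 3 was again at control level. Against control, Myc rose in HFpEF-scr (1.06 ± 0.24, adjusted p = 0.016) and fell in HFpEF-FoxO1-sh against HFpEF-scr (-1.03 ± 0.24, adjusted p = 0.0309). Without HFpEF-scr 1 and 2 the values were 0.54 (adjusted p = 0.24; over all settings 0.000939 to 0.24) and -0.51 (adjusted p = 0.382; over all settings 0.00226 to 0.382).

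Icam1, an adhesion molecule for leukocytes, and Il4ra, a receptor subunit for interleukin-4, were lower in every HFpEF-FoxO1-sh library than in any HFpEF-scr library. Icam1 read 18.2, 15.2, 16.8 and 12.2 CPM in HFpEF-scr and 7.04, 11.3, 10.4, 9.57 and 9.20 in HFpEF-FoxO1-sh, beside 11.0 to 12.8 in control. It fell by 39.3% (log2 fold change -0.72 ± 0.13, adjusted p = 0.00669). Il4ra fell by 25.8% against HFpEF-scr (-0.43 ± 0.07, adjusted p = 0.00605) and by 17.5% against control (-0.28 ± 0.07, adjusted p = 0.0159). In contrast to Myc, the size of these differences hardly moved without HFpEF-scr 1 and 2, at -0.62 for Icam1 (adjusted p = 0.086; over all settings 1.24e-05 to 0.086) and -0.40 for Il4ra (adjusted p = 0.0767; over all settings 0.000176 to 0.0767), although neither passed the threshold with those fewer libraries.

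Ccl2, a chemokine that draws monocytes, read 5.98, 4.50, 2.05 and 1.98 CPM in HFpEF-scr and 1.06 to 1.72 in HFpEF-FoxO1-sh, beside 1.19 to 2.32 in control. In HFpEF-scr against control Ccl2 was not called (log2 fold change 1.00, edgeR adjusted p = 0.0562), and the value was 0.16 without HFpEF-scr 1 and 2. It fell in HFpEF-FoxO1-sh against HFpEF-scr (-1.34 ± 0.32, adjusted p = 0.0313), and without HFpEF-scr 1 and 2 the value was -0.50 (adjusted p = 0.453; over all settings 0.00277 to 0.453). Runx1, a transcription factor, fell in HFpEF-FoxO1-sh against control (-0.68 ± 0.17, adjusted p = 0.0135), with no overlap of the groups, and so did Fgl2, a secreted fibrinogen-like protein (-0.39 ± 0.12, adjusted p = 0.0389), with overlap. The call of Runx1 held in all 17 alternative settings, and that of Fgl2 was lost in 7 of them (adjusted p 0.0125 to 0.101).

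**Figure D4:**
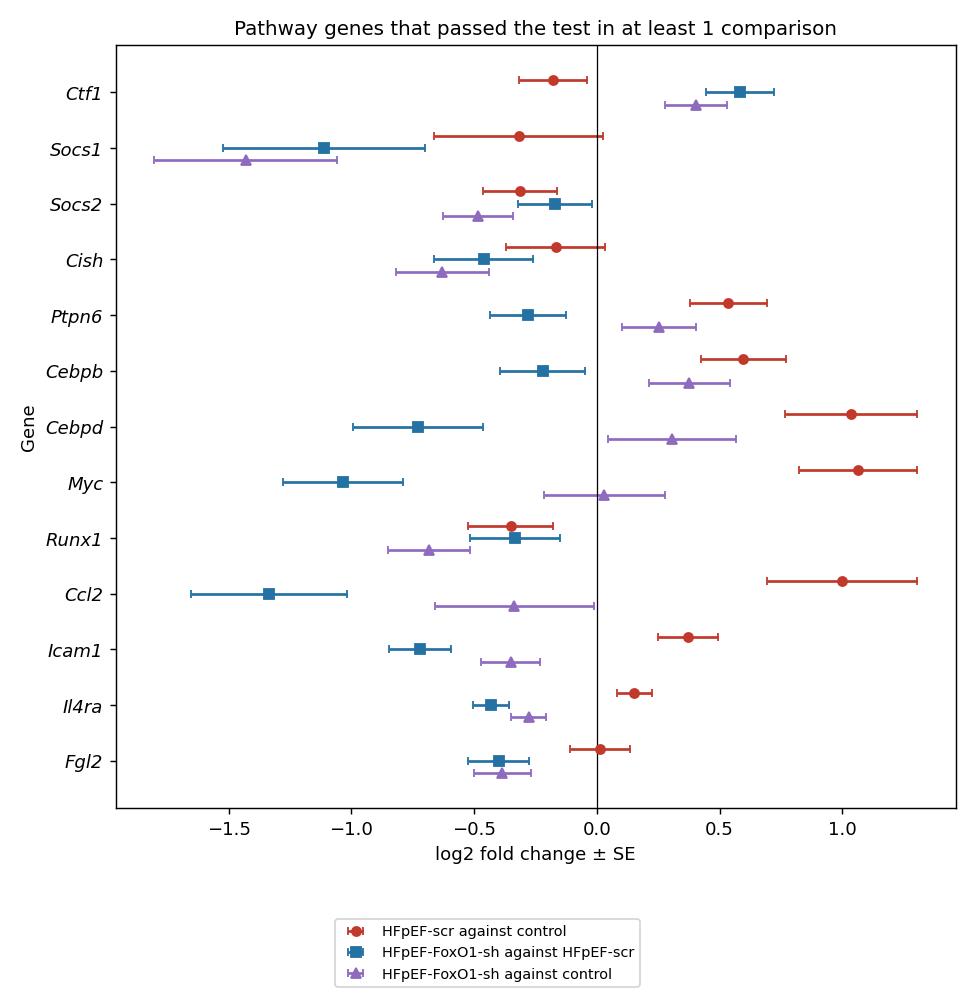
log2 fold change (x axis) with bars of ± 1 SE in the 3 comparisons for the 13 pathway genes outside the members (y axis) that passed the test in at least 1 of them, ordered from ligand to inhibitors to targets. Myc, Cebpd and Ccl2 lie at 1.00 or above in HFpEF-scr against control and below -0.7 in HFpEF-FoxO1-sh against HFpEF-scr. Ccl2 was not called in the first of these comparisons and Cebpd not in the second. Ctf1 is the gene that lies above 0 in both comparisons of HFpEF-FoxO1-sh.

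Immediate early genes moved with Socs3 within HFpEF-scr. The score read 6.45, 6.89, 4.68 and 5.75 in HFpEF-scr 1 to 4, against 3.36 to 6.15 in control and 3.47 to 5.74 in HFpEF-FoxO1-sh. HFpEF-scr 1 and 2 had the highest scores of all 14 libraries and HFpEF-scr 3 the lowest of its group. Of the 20 genes, 20 were above 0 in HFpEF-scr against control (median log2 fold change 0.75). Of these, 4 were called higher, beside 3.66% of all genes. In HFpEF-FoxO1-sh against HFpEF-scr, 1 was above 0 (median -0.74) and 3 were called lower, beside 2.26% of all genes. Between HFpEF-FoxO1-sh and control, 11 were above 0 (median 0.07). There 1 was called higher in HFpEF-FoxO1-sh, beside 6.68% of all genes. The differences of the group means did not pass a two-sided exact permutation test over libraries, with p = 0.103, 0.143 and 0.778 for HFpEF-scr against control, HFpEF-FoxO1-sh against HFpEF-scr and HFpEF-FoxO1-sh against control (Benjamini-Hochberg adjusted over 3 comparisons: 0.214, 0.214 and 0.778). With the score as a covariate, the log2 fold changes of Socs3 were 1.42 and -1.88 and those of Osmr 0.59 and -0.35, in HFpEF-scr against control and HFpEF-FoxO1-sh against HFpEF-scr. Control 5, with a score of 6.15, had the lowest Socs3 of all 14 libraries at 3.34 CPM.

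Markers of other cell types moved in part with these genes, and their part in the results was not tested. Fibroblast markers, whose cells are known to carry Osmr, were above 0 for 8 of 8 genes in HFpEF-scr against control. Of these, 2 were called higher, beside 3.66% of all genes. In HFpEF-FoxO1-sh against HFpEF-scr, 0 of 8 were above 0 and 2 were called lower, beside 2.26% of all genes. Between HFpEF-FoxO1-sh and control, where Osmr stayed higher, 5 of the 8 fibroblast markers were above 0. There 0 were called higher and 2 lower, beside 6.68% and 6.28% of all genes. The summed level of the fibroblast markers was 1695 to 2022 CPM in control, 1822 to 2377 in HFpEF-scr and 1755 to 2212 in HFpEF-FoxO1-sh. Macrophage markers were called lower for 9 of 10 genes in HFpEF-FoxO1-sh against control, beside 6.28% of all genes. Against HFpEF-scr, 3 of 10 were called lower, beside 2.26% of all genes. The macrophage sums were 234 to 316, 217 to 273 and 161 to 205 CPM in control, HFpEF-scr and HFpEF-FoxO1-sh. Of 7 neutrophil markers, 6 were in the table, and their sum was 7.22 to 9.87 CPM in control, 6.62 to 13.3 in HFpEF-scr, highest in HFpEF-scr 2, and 6.28 to 9.47 in HFpEF-FoxO1-sh. The defining S100a8 had 45 counts and S100a9 94 in all 14 libraries together, and the 2 markers that passed the filter were not called. Red cell markers, which blood in the tissue brings along, reached 6039 CPM in HFpEF-scr 1 against at most 1697 in the other groups. HFpEF-scr 1 also had the highest endothelial sum, 1352 CPM, and the highest Stat3 and Ccl2. Without it alone, the log2 fold changes in HFpEF-FoxO1-sh against HFpEF-scr were -0.25 for Stat3 and -0.98 for Ccl2, and both calls were lost.

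Among the genes most like Socs3 over the 14 libraries, by Pearson correlation of log2 CPM in a set of 11375 genes, were Arhgef10 (r = 0.898), Fosb (0.874), Plat (0.87) and Ept1 (0.852). Fosb is an immediate early gene that reached 468 CPM in HFpEF-scr and was at 2.18 in HFpEF-scr 3. Those most like Osmr were Cstf3 (0.928), Impact (0.911), Dab2ip (0.903), Ppfibp1 (0.9) and Zzz3 (0.895). For each of these every HFpEF-scr library was above every control library, as for Osmr. They were picked for their likeness to Osmr, so this is no separate result. The 2 lists share no gene, and Socs3 and Osmr correlated at 0.534 with each other. These values describe 14 libraries that share groups and scaling, so no p is given.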

How the data were processed

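Messenger RNA of left ventricle was measured in 14 libraries (5 control, 4 HFpEF-scr, 5 HFpEF-FoxO1-sh). The authors deposited expected counts per gene, of which 15.1% to 16.4% per library were not whole. The submitters' processing notes name Bowtie2 2.1.0, RSEM 1.2.15 and mm10. The gene annotation, filters and strand setting are not given in the sources used here. Each column carries a library number, which is the description of 1 sample.

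Expected counts were rounded and tested in edgeR 4.0.16 (R 4.3.3): filterByExpr on the groups, TMM, and a quasi-likelihood fit over all 14 libraries with a term for each group. P-values were adjusted by Benjamini-Hochberg over 13588 genes and called under 0.05. Each SE was the fold change over the root of its F value. log2 CPM used a prior count of 2. The script was tested on simulated data. Replicate pairs showed no duplicated library.

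The members, gene lists and tests were chosen with earlier results of these data known. The text names the 8 members, Foxo1, Osm, every pathway gene called in any comparison, and the 5 genes most correlated with Socs3 and with Osmr among those with a mean of at least 2 CPM. A gene that this choice would name is not reported here. Alternatives were DESeq2 size factors, no filter, DESeq2 1.42.0, limma 3.58.1 voom, fits of 2 groups, a replicate block, the immediate early score as a covariate, and leaving out each library. Leaving out HFpEF-scr 1 and 2 together was added after seeing the data. Of the marker lists not described in the report, T cell and adipocyte markers had no gene that passed the filter, and B cell markers had 2 of 4, none called. Endothelial markers (6 tested) were called for 1 higher in HFpEF-scr against control and 1 lower in each comparison of HFpEF-FoxO1-sh, pericyte and smooth muscle markers (7) for 3 higher in HFpEF-scr against control, ventricular muscle markers (7) for 3 lower in HFpEF-scr against control and 1 lower in HFpEF-FoxO1-sh against control, atrial muscle markers (2) for 1 lower in the latter, and red cell markers (8) for none. Of all genes, 3.66% were called higher and 3.7% lower in HFpEF-scr against control. The shares called lower were 2.26% in HFpEF-FoxO1-sh against HFpEF-scr and 6.28% in HFpEF-FoxO1-sh against control. Promoters and positions are RefSeq and GENCODE vM21 on GRCm38.p6. Figures were drawn with matplotlib 3.10.9.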

Additional observations from a re-analysis of the deposited data

Results flagged for a closer look

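Stat3 in HFpEF-FoxO1-sh 1 was at 110.6 CPM, apart from the other 4 libraries of its group, which lay between 119.8 and 122.6 CPM. Its gap to the nearest library was 0.771 of the group's range. Of 69 groups of libraries looked at in this way, over 23 genes and scores, it was the only one so far apart, and chance flags about 1 in 20. Without it the log2 fold change of Stat3 in HFpEF-FoxO1-sh against HFpEF-scr was -0.32.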

How the results depend on the processing

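Of 1068 alternative values for single genes, 929 were counted as unchanged, 120 lost a call and 16 gained one. For Socs3 and Osmr, which have no test, unchanged means a move smaller than the spread between replicates. For the other genes it means the same side of the threshold. The remaining 3 values, all of them Socs3, moved by more than the spread between replicates. No called value changed sign, and 23 of the 929, called under neither setting, did. Osmr kept its direction in all 17 alternatives, at 0.54 to 0.62 in HFpEF-scr against control, -0.39 to -0.30 in HFpEF-FoxO1-sh against HFpEF-scr and 0.19 to 0.27 in HFpEF-FoxO1-sh against control. For Socs3 the first of these comparisons ran from 0.83 to 2.67 and the second from -3.00 to -1.16.

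Pathway genes called in HFpEF-scr against control were 4, and 7 with DESeq2, 2 with limma voom, 1 in the fit of the 2 groups alone, 0 with the immediate early score as a covariate (14 at an unadjusted p under 0.05) and 0 without HFpEF-scr 1 and 2. Leaving out 1 library gave 0 (without HFpEF-scr 2) to 8 (without HFpEF-scr 3), and also moved the count by over 1.5 times without control 2, 3, 4 or 5. In HFpEF-FoxO1-sh against HFpEF-scr they were 5, then 2 with the covariate and 0 without HFpEF-scr 1 and 2, and 2 to 8 without 1 library, with such moves for HFpEF-scr 1, 2 and 3 and HFpEF-FoxO1-sh 1 to 4. In HFpEF-FoxO1-sh against control they were 7, and 2 to 7 without 1 library, with such moves for control 2, 3 and 5 and HFpEF-FoxO1-sh 1 and 2.

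Of the 6 tested members, the 1 called in HFpEF-FoxO1-sh against HFpEF-scr became 0 in the fit of the 2 groups alone, with the covariate and without HFpEF-scr 1 and 2, and 0 to 1 without 1 library. In HFpEF-FoxO1-sh against control the 1 call became 2 in the fit of the 2 groups alone, and 0 to 1 without 1 library.

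Over all genes, 1001 were called in HFpEF-scr against control, 504 in the fit of the 2 groups alone, 419 with the covariate, 560 without HFpEF-scr 1 and 2, and 537 to 1106 without 1 library. In HFpEF-FoxO1-sh against HFpEF-scr 486 were called, 857 with DESeq2, 268 with the covariate, 54 without HFpEF-scr 1 and 2, and 162 to 668 without 1 library. The cause of these moves was not tested, beyond the smaller number of libraries in fits that leave some out.

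Same-numbered libraries did not deviate together over all genes, with correlations of -0.194 to 0.111 over 13 pairs and 1 of them over 0.1. This gave no sign that the numbers pair the samples. It cannot exclude a pairing that touches few genes, and the labels do not name one. With the replicate block, 2 pathway genes were called in HFpEF-scr against control and 3 in HFpEF-FoxO1-sh against control, 0 tested members in HFpEF-FoxO1-sh against HFpEF-scr (2 at an unadjusted p under 0.05) and 2 in HFpEF-FoxO1-sh against control, and 291 genes in all in HFpEF-FoxO1-sh against HFpEF-scr. Depth limits Osm, Il6 and other genes with a few counts per library, whose fitted folds are imprecise, and 4 or 5 libraries a group limit the rest.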
